A study of Mus musculus with 3 samples.

Results

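The collagen genes were taken as every gene of the exonic parts table, outside merged groups of overlapping genes, whose name consists of Col, a number, the letter a and a number, such as Col1a1. The rule found 41 of 52071 unmerged genes, and they held 2177 of the table's 469293 exonic parts. Exonic parts are the pieces into which annotated exon edges divide a gene's exons. Col3a1, Col7a1 and Col20a1 lie in merged groups with an overlapping gene and are not among the 41. Skeletal muscle of 12-week-old mice was sequenced in 3 libraries, 1 each from a wild-type mouse, a heterozygote and a homozygote for the Rbm20 change I538T, which was introduced by CRISPR/Cas and corresponds to human I536T. RBM20 is an RNA-binding protein known for its control of titin splicing. The labels name no muscle and no number of animals behind a library, and call the libraries representative; the other ages they name were not analysed here. With 1 library a genotype nothing checks a difference against replicates and no p-value is printed. Every difference describes these 3 libraries. The 95% intervals account for read counting alone, since PCR copies of 1 molecule count as separate reads.

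Collagens are extracellular matrix proteins whose chains wind into a triple helix, which requires glycine as the first residue of each triplet. Fibrillar collagens give tissue its tensile strength, type IV collagen forms the network of basement membranes, such as the one around each muscle fibre, and type VI collagen forms beaded microfilaments that lie between both. In muscle most collagen is made by fibroblasts and other cells of the connective tissue, while types II, IX, X and XI are known chiefly from cartilage, and XII, XIV and XXII from tendon, fascia and the junction of muscle with tendon.

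The helix was visible in the genes' structure. In the longest coding transcript of each gene in GENCODE M21, called its main transcript below, 63.8% of 1718 internal coding exons of the collagen genes were multiples of 9 bases long and 25.3% were exactly 54 bases, against 13.7% and 0.465% of 157213 exons of other genes. Exons of 54 bases made up 46.1% of those of the 5 fibrillar genes, 40.9% of those of the 12 tendon or cartilage genes and 4.43% of those of the 8 basement membrane genes. The longest unbroken run of triplets led by a glycine codon held 337 to 339 triplets in the fibrillar genes and 30 to 66 in the basement membrane genes, whose helices are known to be interrupted. The 2 exons below lie in stretches whose splicing results are given further on, read from the GENCODE M21 transcripts (GRCm38) 5′ to 3′ on the coding strand, with in-frame glycine codons (GGN) in capitals.

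Col5a1 exon 15: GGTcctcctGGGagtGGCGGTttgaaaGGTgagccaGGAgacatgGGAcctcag
Col4a1 exon 21: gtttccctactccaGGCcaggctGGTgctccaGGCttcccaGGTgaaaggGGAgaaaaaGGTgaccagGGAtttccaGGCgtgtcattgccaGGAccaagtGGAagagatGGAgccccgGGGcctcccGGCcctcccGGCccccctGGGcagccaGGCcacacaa

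Col5a1 exon 15 (chr2:27965251-27965304, plus strand) is a helix exon of 54 bases. Col4a1 exon 21 (chr8:11235095-11235259, minus strand) is 165 bases long, and 14 of the 15 spacings between its neighbouring glycine codons were 3 codons, the other being a break in the repeat.

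A gene's level is its inclusion reads summed over its parts, per 1000000 inclusion reads of the library (RPM). Libraries held 215923385 to 265358773 inclusion reads. A read can count in several parts. A gene was counted as measured at 5 RPM or more in at least 1 library. That held for 20 of the 41 collagen genes: all 5 fibrillar genes, 5 of 8 basement membrane genes, 4 of 6 microfibrillar (type VI) genes, 4 of 12 tendon or cartilage genes, 1 of 4 transmembrane genes and 1 of 6 others. Summed over all 41, collagen genes had 1280 RPM in wild type, 1421 in the heterozygote and 680 in the homozygote, so the homozygous library held the least. In bulk tissue, fewer cells of a type and less RNA per cell cannot be told apart. Of the 20 measured genes, 14 (70.0%) were lowest in the homozygote, against 53.5% of all 9432 measured genes. The heterozygote was highest for 11 of the 20, a share that was not taken over all genes. All genes leaned that way too: 5663 of the 9432 were higher in the heterozygote than in wild type. Likewise, 6671 were lower in the homozygote than in the heterozygote.

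**Figure D1:**
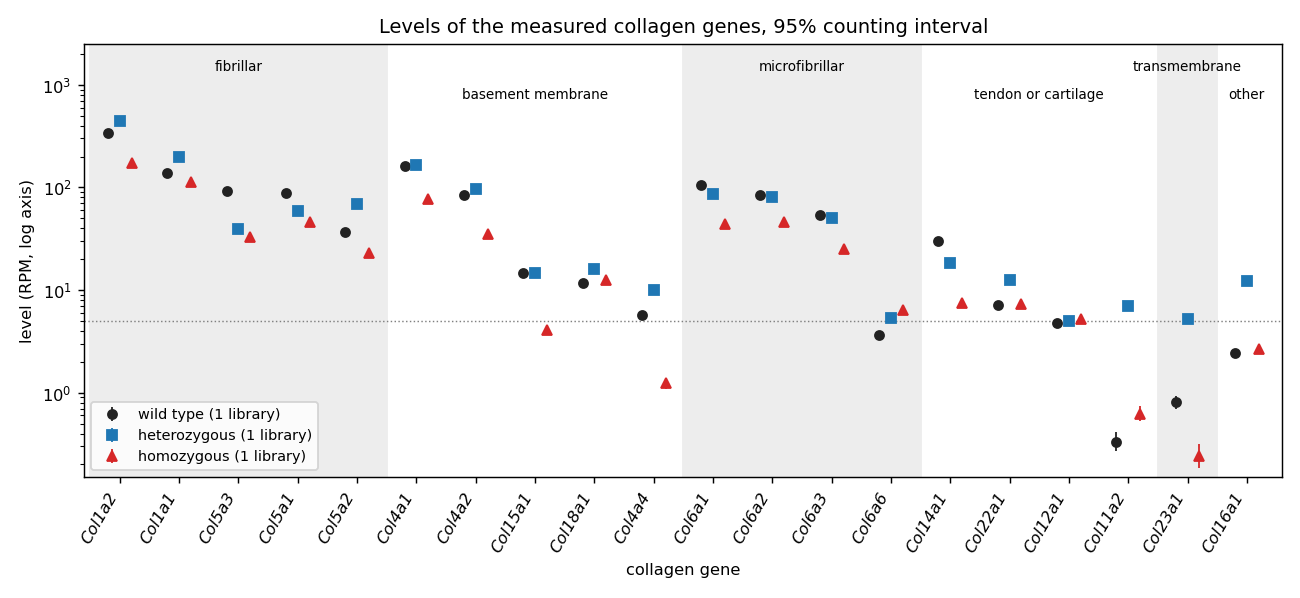
Levels in RPM (log axis) of the 20 measured collagen genes in the wild-type, heterozygous and homozygous library, by class (bands), with 95% counting intervals and the minimum of 5 RPM as a dotted line. Col1a2 was the highest in each library (337, 441 and 173 RPM), and the homozygous symbol lies lowest for 14 of the 20 genes.

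The fibrillar genes carried most of the collagen reads, with 694 RPM in wild type, 808 in the heterozygote and 386 in the homozygote. Type I collagen is the main fibre-forming collagen of connective tissue and is built of α1 and α2 chains. Col1a2, the α2 chain, had 337 RPM in wild type, 441 in the heterozygote and 173 in the homozygote. Col1a1, the α1 chain, had 138, 199.8 and 112 RPM. Both were therefore highest in the heterozygote and lowest in the homozygote, and the log2 ratio of homozygote to wild type, on RPM plus 1, was -0.96 for Col1a2 and -0.29 for Col1a1. Type V collagen, a minor partner within type I fibrils that controls their diameter, had 3 genes. Col5a3 had 93.2 RPM in wild type, 39.0 in the heterozygote and 32.6 in the homozygote, so both knock-in libraries lay below wild type. Col5a1 had 89.2, 59.3 and 45.6 RPM and stepped down in the same order. Col5a2 had 37.1, 68.4 and 22.9 RPM, with the heterozygote highest.

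The balance of chains was read per length, as RPM per 1000 bases of main-transcript exons. The ratio of Col1a1 to Col1a2 was 0.369 in wild type, 0.410 in the heterozygote and 0.589 in the homozygote. Reads per base of Col1a2 were higher 3′ of the transcript's midpoint than 5′ of it by 2.61, 2.85 and 4.69 times, and those of Col1a1 by 1.06, 1.33 and 1.33 times, and the part of this lean in the ratio was not tested. The ratio of Col5a1 to Col5a2 was 1.89 in wild type, 0.682 in the heterozygote and 1.57 in the homozygote. Only in the heterozygote did the α2 chain of type V have more reads per length. The ratio of 3′ to 5′ reads per base was 1.21, 1.83 and 1.19 for Col5a1 and 1.71, 0.836 and 1.64 for Col5a2. Col5a1 had reads in 70, 63 and 70 of its 70 main-transcript parts. The part of this uneven coverage in the ratio of Col5a1 to Col5a2 was not tested. For type IV the ratio of Col4a1 to Col4a2 stayed between 1.65 and 2.10, and for type VI that of Col6a1 to Col6a2 between 0.997 and 1.27. The other measured α chain of common type VI, Col6a3, was far lower, with a ratio to Col6a2 of 0.160, 0.126 and 0.111. Reads per base of Col6a3 were 11.2, 49.2 and 9.49 times higher 3′ of the midpoint than 5′ of it. The part of this lean in the ratio of Col6a3 to Col6a2 was not tested.

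Among basement membrane genes, Col4a1 and Col4a2 encode the chains of the common type IV network. Their starts lie 21 bases apart on opposite strands of chromosome 8, in GENCODE M21. Col4a1 had 161 RPM in wild type, 164.5 in the heterozygote and 76.6 in the homozygote. Col4a2 had 84.2, 96.8 and 35.6 RPM. The pair was near level in wild type and heterozygote and low in the homozygote, with log2 ratios of homozygote to wild type of -1.06 and -1.22. Col15a1, a basement membrane collagen carrying sugar chains and known from the muscle basement membrane, had 14.6, 14.6 and 4.09 RPM, the same shape as the type IV pair. Its log2 ratio of homozygote to wild type was -1.61. Col18a1, its close relative and the source of endostatin, had 11.8, 16.1 and 12.4 RPM, and in contrast was not low in the homozygote. Col4a4, a chain of the minor type IV network, had 5.72, 9.91 and 1.24 RPM, with reads in 19 of its 49 main-transcript parts in the homozygote. The partner of Col4a4 in that network and its divergent neighbour on chromosome 1, Col4a3, stayed below the minimum at 1.00, 4.21 and 1.86 RPM. Col4a5 and Col4a6, divergent neighbours on the X chromosome, were below it as well, and Col4a6 had 104 reads in wild type, 35 in the heterozygote and 0 in the homozygote.

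Type VI collagen surrounds muscle fibres, and its genes are known for inherited muscle disease in people. Col6a1 had 106.8 RPM in wild type, 86.4 in the heterozygote and 44.4 in the homozygote. Col6a2 had 84.8, 81.0 and 45.6 RPM. Col6a3, the long α3 chain, had 53.6, 50.4 and 25.2 RPM. The 3 chains were thus all lowest in the homozygote, with log2 ratios of homozygote to wild type of -1.25, -0.88 and -1.06, and of heterozygote to wild type of -0.30, -0.06 and -0.09. From reads 5′ of the midpoint alone, the log2 ratio of homozygote to heterozygote for Col6a3 was 0.87 instead of -0.97, so the direction turned. Col6a6, a chain related to α3, went the other way at 3.67, 5.32 and 6.37 RPM. Its reads came from 23, 19 and 31 of 39 main-transcript parts, and with the median reads per base over its parts in place of the sum its heterozygote to wild type log2 ratio was -1.57 instead of 0.44. Col6a4 and Col6a5 had 0 to 98 reads a library.

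Of the tendon or cartilage genes, Col14a1, a fibril-associated collagen of fascia and tendon, stepped down from 30.04 RPM in wild type to 18.2 in the heterozygote and 7.44 in the homozygote. Its log2 ratio of homozygote to wild type, -1.88, was the lowest of the 20 measured genes. Col12a1, a fibril-associated relative, differed little, at 4.79, 5.01 and 5.27 RPM. Col22a1, which marks the muscle side of the junction with tendon, had 7.17, 12.6 and 7.27 RPM. Col11a2, a chain of the cartilage fibril, had 0.334 RPM in wild type, 7.04 in the heterozygote and 0.625 in the homozygote, and reached the minimum only in the heterozygote.

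Of the 6 genes of types II, IX, X and XI below the minimum, 5 had more reads and more RPM in both knock-in libraries than in wild type. This share was not taken over all genes. Col2a1, the main fibrillar collagen of cartilage, had 7 reads in wild type, 990 in the heterozygote and 240 in the homozygote. Col9a1, a collagen on the surface of cartilage fibrils, had 0, 213 and 578 reads, which put it at least 64.2-fold higher in the heterozygote and at least 214-fold higher in the homozygote against a floor of 3 reads a library. Col10a1, a marker of hypertrophic cartilage, had 0, 39 and 34 reads, at least 11.7-fold and at least 12.6-fold higher. Col11a1, the partner of Col11a2, had 180, 1214 and 821 reads. Col9a2 and Col9a3 encode the other chains of type IX. Col9a2 had 8, 42 and 83 reads. Col9a3 had 41, 90 and 2 reads and, unlike the others, was lowest in the homozygote. The spread of reads along the genes differed: those of Col2a1 came from 6, 16 and 13 of 64 main-transcript parts, and 1 part held 46.2% of them in the heterozygote and 63.6% in the homozygote. The heterozygote's Col10a1 reads all lay in 1 of 3 parts, and so did the homozygote's. Col9a1 had reads in 5 of 39 parts in the heterozygote and 24 in the homozygote, where 1 part held 17.6% of them, and Col11a1 in 22, 21 and 32 of 74. Among 8 markers of bone and cartilage, 6 had more reads and more RPM in both knock-in libraries than in wild type, again without a share over all genes. Bglap (osteocalcin) had 4, 5904 and 3043 reads and Ibsp (bone sialoprotein) 9, 2018 and 759, and the 8 markers summed to 1.65, 32.6 and 19.4 RPM. The cartilage markers Acan, Matn3, Snorc and Hapln1 were at 0 reads in wild type and at most 175 reads elsewhere. The other 2 did not follow: Sox9, a transcription factor of cartilage, had 367, 252 and 182 reads, highest in wild type, and Cnmd (chondromodulin) had 16, 337 and 11. The part of other tissue in these values was not tested.

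The 2 measured genes of the remaining classes, Col16a1 and Col23a1, were high in the heterozygote and low in the other libraries. Col16a1, a fibril-associated collagen, had 2.46 RPM in wild type, 12.3 in the heterozygote and 2.64 in the homozygote. Col23a1, a transmembrane collagen, had 0.805, 5.18 and 0.241 RPM. Wild-type reads of Col23a1 lay in 5 of 30 main-transcript parts, the homozygote's in 1 and the heterozygote's in all 30. The 21 genes below the minimum had medians of 0.409, 0.339 and 0.384 RPM in the 3 libraries and reached at most 4.79 RPM, held by Col8a1 in the heterozygote, a network-forming collagen of vessels at 4.67, 4.79 and 2.13 RPM. There were 4 genes with no read in wild type, 1 in the heterozygote and 2 in the homozygote.

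For the question of what both copies of the change go with, the homozygote was set against wild type. A difference of at least 2-fold in RPM plus 1 was called. No collagen gene was higher and 8 of the 20 measured were lower: Col14a1, Col15a1, Col4a4, Col5a3, Col6a1, Col4a2, Col4a1 and Col6a3. Over all 9432 measured genes 10.1% were called lower and 2.05% higher. The median log2 ratio of the collagen genes was -0.92, against -0.18 over all genes. By class it was -1.22 for the basement membrane genes, -0.97 for type VI, -0.95 for the fibrillar genes and 0.07 for the tendon or cartilage genes. Scaling by median-of-ratios size factors, which set the all-gene median near 0 by shifting it 0.18, left 6 lower genes and moved Col4a1 and Col6a3 to -0.87 each. Reads 3′ of the midpoint alone placed Col4a1 at -0.87 and Col4a4 at -0.50, and those 5′ of it Col6a3 at -0.94.

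With 1 copy of the change, the heterozygote against wild type gave 3 genes at least 2-fold higher, Col11a2, Col16a1 and Col23a1. Of all genes, 5.98% were higher. All 3 reached the minimum of 5 RPM only in the heterozygote, so the minimum itself picked them for being high there. Col5a3 alone was lower, where 3.14% of all genes were lower. The log2 ratios were 2.59, 1.94 and 1.78 for the 3 higher genes and -1.24 for Col5a3. The median was 0.29 for the collagen genes and 0.10 over all genes. The class medians were 0.39 for the fibrillar genes, 0.20 for basement membrane genes, -0.08 for type VI and 0.40 for the tendon or cartilage genes. The 3 higher genes depended on where reads fell: Col16a1 was at 1.00 from reads 5′ of the midpoint alone and at 2.19 from those 3′ of it, Col11a2 was at 0.68 from reads 5′ of the midpoint alone, and Col23a1 at 0.91 from those 3′ of it. Col6a3 and Col14a1 were at -1.81 and -1.43 from reads 5′ of the midpoint, against -0.09 and -0.69 from all reads.

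The homozygote against the heterozygote gave 10 lower genes and none higher, where 14.5% of all genes were lower and 1.49% higher. This comparison shares its homozygous library with the first comparison and its heterozygous library with the second. The lowest log2 ratios were -2.32 for Col23a1, -2.31 for Col11a2, -2.29 for Col4a4, -1.87 for Col16a1 and -1.61 for Col15a1. The others were Col5a2, Col4a2, Col1a2, Col14a1 and Col4a1, from -1.54 to -1.09. Of the 10 lower genes, Col23a1, Col11a2 and Col16a1 reached the minimum of 5 RPM only in the heterozygote. From reads 5′ of the midpoint alone Col11a2 was at 0.18, so its direction turned, and under size factors Col14a1 was at -0.92 and Col4a1 at -0.80. Col14a1 was at -0.30 from reads 5′ of the midpoint.

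**Figure D2:**
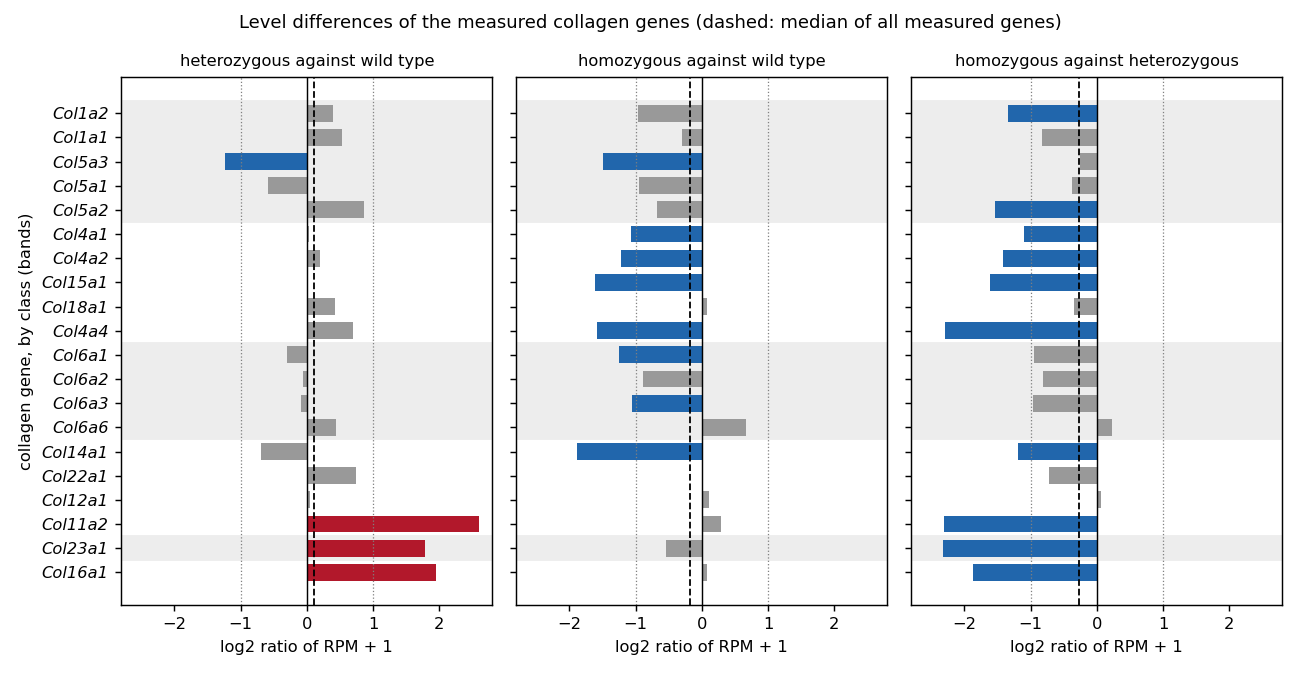
Log2 ratio of RPM plus 1 for each measured collagen gene in the 3 comparisons, with classes as bands, dotted lines at 2-fold, the all-gene median dashed, and genes past 2-fold in red (higher) or blue (lower). Homozygote against wild type shows 8 blue and no red bars, and heterozygote against wild type 3 red and 1 blue.

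The genes that make, bind and remodel collagen were described from lists. For each list's count, the share over all measured genes in the homozygote against wild type is 10.1% lower and 2.05% higher, with a median of -0.18, and in the heterozygote 3.14% lower and 5.98% higher. Of 14 measured genes for modification and folding in the endoplasmic reticulum, 3 were lower and none higher in the homozygote against wild type, with a median log2 ratio of -0.49. P3h1, a prolyl 3-hydroxylase, had 12.7 RPM in wild type, 11.4 in the heterozygote and 2.50 in the homozygote. Plod1, a lysyl hydroxylase, had 30.1, 17.3 and 8.73 RPM, and P4ha2, a prolyl 4-hydroxylase subunit, 30.7, 18.5 and 12.5. Sparc, a collagen-binding protein and the most abundant gene of the list, had 1397, 1444 and 725 RPM. All 4 were thus lowest in the homozygote. Serpinh1, a collagen chaperone, had 73.0, 74.7 and 42.5 RPM, and P4ha1, another prolyl 4-hydroxylase subunit, had 25.6, 15.04 and 31.3 RPM and was not low in the homozygote; both were picked after their values were seen.

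Outside the cell, 1 of 6 measured genes for processing and crosslinking was lower in the homozygote against wild type. It was Pcolce2, which speeds the cleavage of procollagen, at 33.4, 47.5 and 10.9 RPM. Lox, which crosslinks collagen, picked in the same way, had 3.25, 7.69 and 3.62 RPM and was past 2-fold in the heterozygote, though no gene of the list was so under size factors. Of 13 measured matrix proteins that bind fibrils, 4 were lower and 1 higher in the homozygote, and 1 and 1 under size factors. Dpt (dermatopontin) had 57.0, 60.7 and 19.8 RPM, Bgn (biglycan) 53.5, 41.8 and 23.7, and Dcn (decorin), the most abundant of the list, 829, 1075 and 469.8. The gene past 2-fold higher in the homozygote was Fmod (fibromodulin), a tendon proteoglycan, at 9.86, 43.8 and 26.3 RPM. Comp, Kera and Postn also had a log2 ratio above 0 in the homozygote, from 0.05 to 0.30.

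The partners of type IV collagen in basement membranes were low in the same library. All 10 measured genes had a log2 ratio below 0 in the homozygote against wild type, where 6038 of 9432 genes did, and 5 were at least 2-fold lower, with a median of -0.89. Under size factors 2 of the 10 were at least 2-fold lower. Lama5, a laminin chain, had 22.8, 17.4 and 8.38 RPM, and Lama4, another, 28.3, 29.9 and 11.9. Nid1 (nidogen), which joins laminin to type IV collagen, had 73.9, 70.8 and 32.8 RPM, the most of the list in wild type and heterozygote. Lamb2, another laminin chain and the most abundant in the homozygote, had 72.1, 66.1 and 60.9 RPM. Its log2 ratio of homozygote to wild type was -0.24, near the all-gene median of -0.18. In the heterozygote against wild type none passed 2-fold, and the median of 0.01 turned to -0.10 under size factors, so no direction is given. Among 4 measured collagen receptors, Itga11, the α11 integrin of fibroblasts, had 5.89, 10.1 and 0.908 RPM, Ddr2, a receptor kinase for fibrillar collagen, had 33.2, 29.1 and 10.03, and Ddr1 had 1.43, 6.78 and 7.08. The first 2 were low in the homozygote and the last was low in wild type. Of 9 measured genes of collagen breakdown, 2 were lower in the homozygote against wild type, Mmp9 at 6.51, 12.0 and 1.11 RPM and Mrc2, an uptake receptor, at 9.10, 6.27 and 3.24 RPM. Timp1, an inhibitor of collagen-degrading proteases, was higher at 0.296, 5.14 and 1.99 RPM.

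Markers of fibroblasts moved in the same direction as most measured collagen genes in the homozygote against wild type. Beside the counts below, 10.1% of all measured genes were lower and 2.05% higher in the homozygote against wild type. In the heterozygote 5.98% were higher. All 8 measured fibroblast markers had a log2 ratio below 0 in the homozygote against wild type, from -1.67 to -0.66. Of all measured genes, 6038 of 9432 were below 0. All measured endothelial (6), pericyte or smooth muscle (5), fat-cell (4) and Schwann (2) markers were below 0 too. So were 3 of 4 macrophage markers and 1 of 6 tendon markers. Of the fibroblast markers, 4 were at least 2-fold lower, in place of 2 under size factors. The fibroblast list summed to 3315, 4290 and 1711 RPM in the 3 libraries. Its measured markers were Dcn, Dpt, Pi16, Lum, Gsn, Cd34, Smoc2 and Ly6a, and Dcn, Dpt and Lum are also in the list of fibril-binding proteins. Gsn alone gave 1967, 2681 and 980 RPM of the sums. Of 6 measured tendon markers, 3 were at least 2-fold higher in the heterozygote (Tnmd, Fmod and Comp) and 2 in the homozygote. Tnmd, Scx and Chodl reached 5 RPM only in the knock-in libraries. The tendon list summed to 99.7, 187 and 125 RPM. Endothelial markers summed to 121, 112.6 and 82.95 RPM, pericyte or smooth muscle markers to 249, 221 and 169, macrophage markers to 69.3, 86.1 and 32.0, Schwann markers to 53.02, 57.98 and 18.1, and fat-cell markers to 2506, 3585 and 1449. The sums of all these lists except tendon were thus lowest in the homozygous library. Single markers could differ from their sum. Cd68 of macrophages had 9.38, 20.2 and 10.9 RPM, lowest in wild type. Myh11 of smooth muscle had 34.4, 25.7 and 28.2 RPM, lowest in the heterozygote. Muscle fibre genes summed to 64796, 58998 and 77357 RPM, highest in the homozygote, while the slow-fibre myosin Myh7 had 179.7, 42.5 and 2.13 RPM. Markers of the myotendinous junction summed to 10.2, 17.2 and 16.5 RPM and those of the neuromuscular junction to 19.2, 17.7 and 21.4. The myotendinous list includes the collagen gene Col22a1, which gave 7.17, 12.6 and 7.27 RPM of its sums. The part of cell makeup or of the muscle sampled in the collagen levels was not tested.

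**Figure D3:**
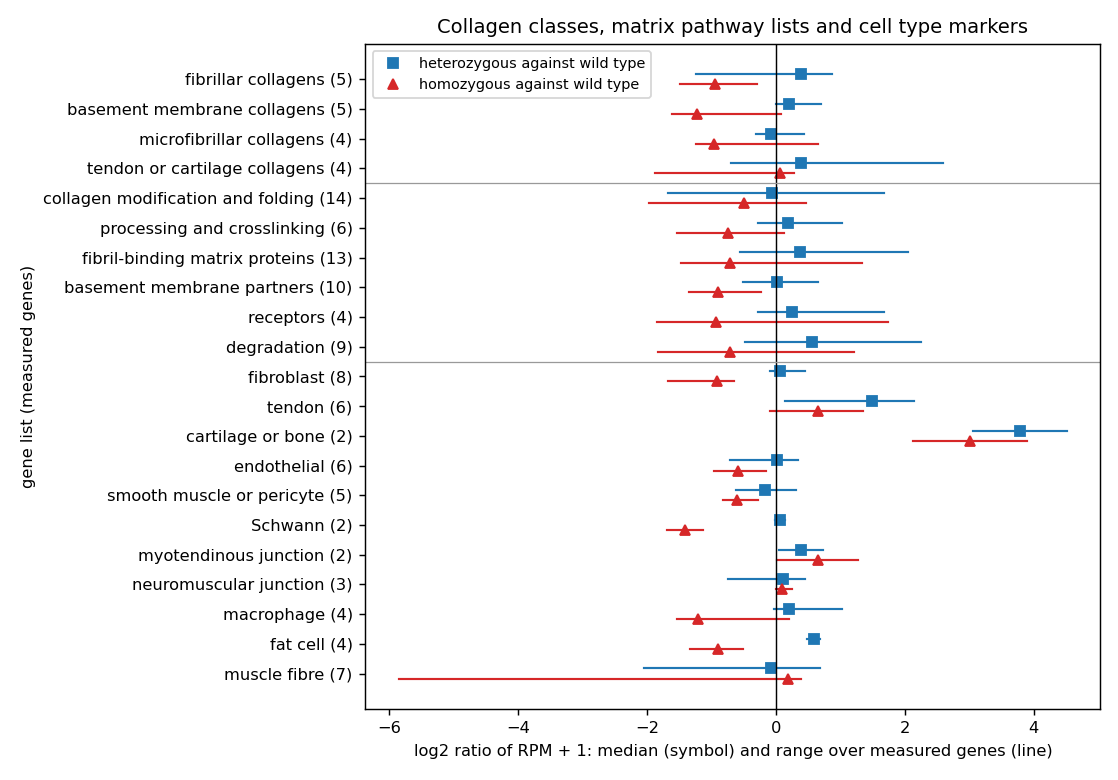
Median (symbol) and range (line) of log2 ratios over the measured genes of collagen classes, matrix lists and cell type markers, for heterozygote (blue) and homozygote (red) against wild type, with the number of measured genes in brackets. Fibroblast markers, at a median of -0.91 in the homozygote, lie beside the fibrillar collagens at -0.95. Fat-cell markers at -0.90 and basement membrane partners at -0.89 lie there too. Macrophage and Schwann markers are lower, at -1.21 and -1.41, and endothelial and pericyte or smooth muscle markers are higher, at -0.58 and -0.60. The medians of tendon and of bone or cartilage markers lie above 0 in both comparisons. The bone or cartilage median rests on 2 measured bone markers, Bglap and Ibsp, which reached 5 RPM only in the knock-in libraries. The minimum thus favoured a median above 0. Of the tendon markers, Tnmd, Scx and Chodl also reached 5 RPM only there.

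Splicing was read as PSI, the inclusion of a part in percent, for parts with at least 10 inclusion plus exclusion reads. Constitutive inclusion was the rule. Of main-transcript parts, 90.6% of 872 in wild type, 90.8% of 1014 in the heterozygote and 95.9% of 826 in the homozygote had a PSI of at least 95%. Parts outside the main transcript had a PSI of at most 5% in 78.6%, 75.8% and 67.1% of cases. An example was a Col1a2 part of 289 bases, annotated only in 1 non-coding transcript that keeps an intron. It had 1681, 2290 and 787 exclusion reads, with PSI of 0%, 0% and 0.630%, so the intron was nearly always removed.

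A part was called different at 20 points of PSI or more. Homozygote against wild type gave 46 of 761 collagen parts, or 6.04%, against 5.39% of 183316 parts over all genes. Heterozygote against wild type gave 94 of 854, or 11.0%, against 5.65%. Homozygote against heterozygote gave 55 of 791, or 6.95%, against 5.42%. Most called parts of a gene carried 1 shared exclusion count, so few junctions lay behind them. Taking parts with the same exclusion counts as 1 left 8, 10 and 13 differences, and the parts sat in 5, 9 and 9 genes.

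Col5a1 and Col18a1 held most of these parts. In the heterozygote, all 51 parts of Col5a1 exons 8 to 57 had exclusion reads, 28 in each part, and none in the other libraries, where PSI was 100% throughout. Inclusion reads of the heterozygote were 0 across exons 9 to 15, where wild type had 33 to 81 and the homozygote 18 to 42. For exon 15, the 54-base helix exon printed above, inclusion reads were 66 in wild type, 0 in the heterozygote and 18 in the homozygote, and PSI was 100% (92.4 to 100), 0% (0 to 8.85) and 100% (76.8 to 100). From exon 16 on, the heterozygote's PSI climbed from 18.5% as inclusion reads became more frequent toward the 3′ end. The skipped span is 3288 bases, a multiple of 3.

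Col18a1 showed the same form in another library. In wild type, 42 parts of exons 2 to 40 had 16 exclusion reads each, with none in the heterozygote and homozygote, where PSI was 100%. Wild type's PSI ran from 18.01% to 88.4% over these parts, following inclusion reads of 7 to 230. Unlike the Col5a1 span, this span of 3652 bases is not a multiple of 3. A part of 747 bases in Col18a1 exon 1 had 22, 11 and 22 inclusion reads against 5, 0 and 10 exclusion reads, and PSI of 39.6% (20.5 to 62.6), 100% (29.9 to 100) and 24.7% (13.6 to 40.5). Reads of Col18a1 were 16.7, 11.2 and 8.64 times denser 3′ of the midpoint than 5′ of it in the 3 libraries.

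**Figure D4:**
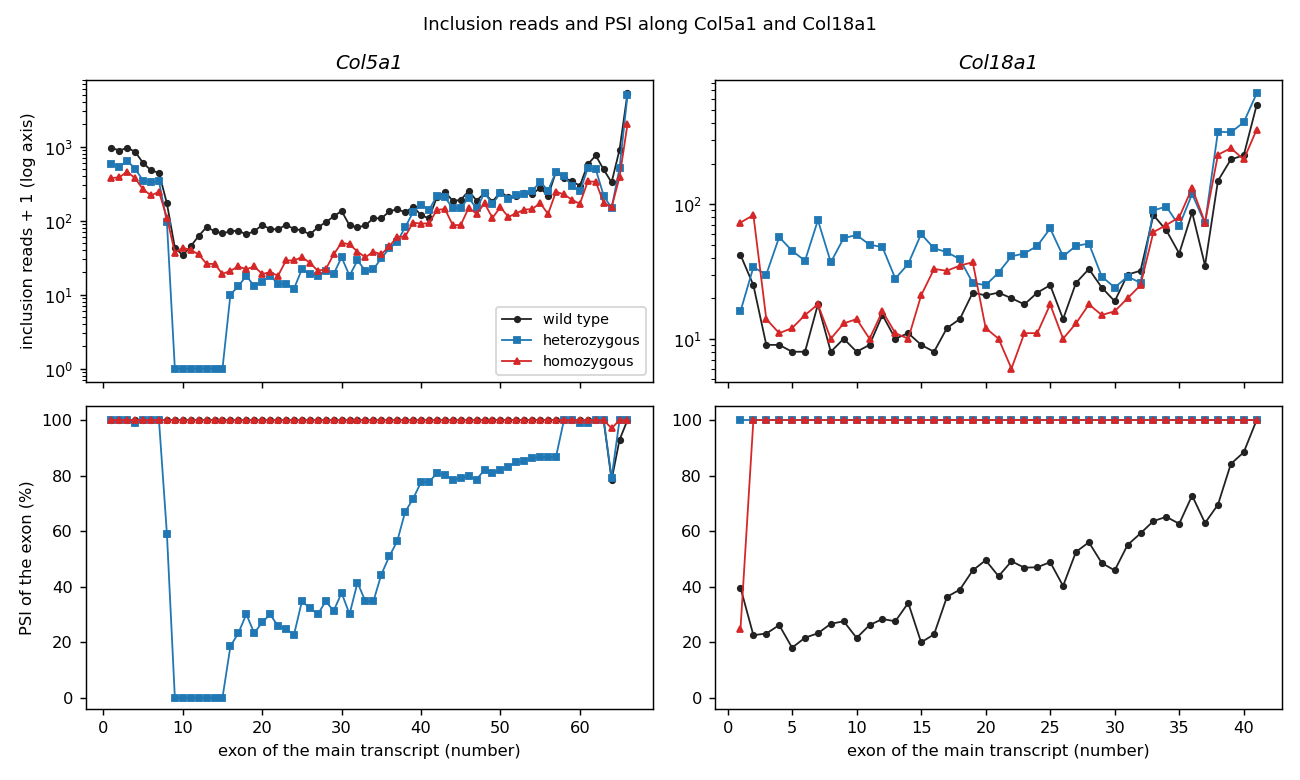
Inclusion reads plus 1 (log axis, top) and PSI in percent (bottom) by exon number of the main transcript, for Col5a1 (left) and Col18a1 (right) in the 3 libraries. The heterozygote has no inclusion read in Col5a1 exons 9 to 15, and wild type alone is below 100% in Col18a1 exons 2 to 40, where its PSI climbs with the reads.

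Uneven coverage along the gene was common in the class. The measured collagen genes had a median ratio of 3′ to 5′ reads per base of 2.18 in wild type, 2.16 in the heterozygote and 1.964 in the homozygote. Other measured genes with main transcripts of 4000 to 10000 bases had medians of 0.818, 0.785 and 0.723. Col6a3 was at 11.2, 49.2 and 9.49, and its wild-type exclusion reads, 9 in each of 41 parts from exon 5 to exon 43, were absent from the other libraries. Exon 10 of Col6a3 had 132, 7 and 99 inclusion reads and PSI of 72.0%, 100% and 100%, with a heterozygous interval of 24.2 to 100. Exon 5 had 3, 17 and 1 inclusion reads and PSI of 5.75%, 100% and 100%. In Col12a1, exons 3 to 17 had 14 exclusion reads each in the heterozygote and 4 in the homozygote, and exon 14 had 10, 3 and 3 inclusion reads and PSI of 100%, 6.50% and 19.6%. A part of 1172 bases in Col12a1 exon 66 had 196, 31 and 69 inclusion reads against 0, 0 and 9 exclusion reads, and PSI of 100% (83.7 to 100), 100% (44.8 to 100) and 43.5% (28.1 to 60.4). A part of 211 bases of a non-coding Col12a1 transcript had 0, 0 and 23 inclusion reads and PSI of 0%, 0% and 59.5% (38.1 to 77.8). In Col4a1, 22 exons from 16 to 37 had 9 exclusion reads each in the homozygote. The heterozygote had 11 in exons 23 to 32 of the same span and 4 in exons 33 to 37, and wild type at most 1. For its exon 21, printed above, inclusion reads were 186, 208 and 40, and PSI was 100% (95.5 to 100), 100% (95.99 to 100) and 66.3% (49.2 to 79.97).

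Other differences lay outside these long spans. In Col5a1 a part of 69 bases (chr2:28029097-28029165), which has no exon in GENCODE M21, had 104, 38 and 15 inclusion reads and PSI of 22.9% (19.1 to 27.3) in wild type, 19.2% (14.1 to 25.5) in the heterozygote and 9.03% (5.48 to 14.5) in the homozygote. The homozygote was lowest, and its interval lay apart from that of wild type, though the difference was short of the 20 points of a call.

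Of the called parts, that of Col14a1 had the most reads, 871 over the 3 libraries. A coding part of 553 bases (chr15:55519137-55519689), found in 1 annotated transcript and not in the main one, had 257, 380 and 36 inclusion reads against 115, 38 and 45 exclusion reads. Its PSI was 29.97% (25.6 to 34.8) in wild type, 65.7% (57.9 to 72.7) in the heterozygote and 13.3% (9.02 to 19.1) in the homozygote, so the 3 intervals did not overlap. The heterozygote minus wild type was 35.7 points (26.6 to 44.0) and the homozygote minus wild type -16.7 points (-23.1 to -9.37). A similar alternative end of Col6a2, a coding part of 2059 bases outside the main transcript, had 786, 976 and 548 inclusion reads and was steadier, at 9.73%, 10.1% and 13.5%.

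In Col15a1 a 96-base part of a non-coding transcript had 0, 29 and 0 inclusion reads and PSI of 0%, 23.3% (16.3 to 32.2) and 0%. In Col4a2 a 113-base part, annotated only in 1 non-coding transcript that keeps an intron, had 3, 0 and 8 inclusion reads. Its PSI was 1.19%, 0% and 24.8% (12.3 to 43.7). In Col22a1 an untranslated part of 127 bases had 0, 11 and 0 inclusion reads and PSI of 0%, 100% (59.2 to 100) and 0%. Each of these parts stood apart in 1 library. Col26a1 and Col27a1, which were below the minimum level, gave 1 called part each in the heterozygote against wild type, with 1 exclusion read in the heterozygote for Col26a1 and 3 in wild type for Col27a1.

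**Figure D5:**
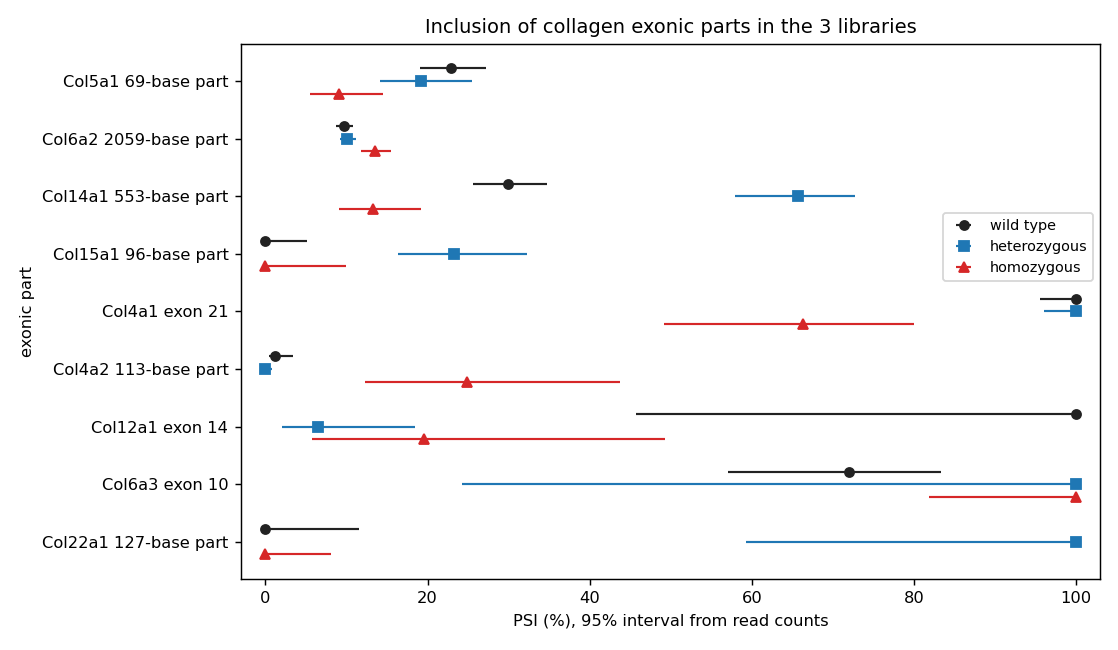
PSI in percent, with 95% intervals from read counts, of 9 collagen exonic parts in the wild-type (black), heterozygous (blue) and homozygous (red) library. The 3 intervals of the Col14a1 part are apart. The homozygote is lowest for the 69-base part of Col5a1 that has no exon in GENCODE M21.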

How the data were processed

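Per the labels, skeletal muscle RNA went through SMART-seq v4 and Nextera XT kits. The deposited table lists, for each exonic part, raw inclusion and exclusion counts, its length and PSI as a fraction, per the file headers. Tools in the submitters' processing notes are TopHat2 2.0.14 and Bowtie 1.1.1 for GRCm38, with cutadapt 1.1 and Trimmomatic 0.32; the sources used here give neither the counting program nor its annotation. The deposited PSI fraction equals a/(a + b) within 5e-07, where a is inclusion reads over length plus 131 and b exclusion reads over 131. Wilson intervals were used for RPM and for PSI, through the inclusion share, and Newcombe's for differences, at 95%. Log2 ratios add 1 RPM. The 1405 merged groups of overlapping genes entered library totals. With 1 library a genotype no test was run. The PSI and level rules were tested on simulated counts. These were drawn independently for each part and gene, so the test does not cover PCR copies or exclusion counts shared between parts. Genes named are members at 5 RPM or more, the largest ratios, per gene the part whose interval bound lies farthest from 0, known alternative exons, and in each list the 3 genes farthest from 0 or the most abundant. Members, lists and rules were chosen with earlier results of these data known. Software was matplotlib 3.10.9, scipy 1.17.1, pandas 2.3.3 and numpy 2.4.6 under Python 3.11.15. Some exons are not reported here.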

Additional observations from a re-analysis of the deposited data

Results flagged for a closer look

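Signal was present for 3 collagen genes in merged groups that the comparisons do not use, where reads of the collagen gene and its overlapping partner cannot be told apart. The group of Col3a1, the fibrillar partner of type I collagen, and Gm47302 had 720.1 RPM in wild type, 641.7 in the heterozygote and 214.7 in the homozygote, above any unmerged collagen gene in each library. The group of Col7a1 and Mir711 had 18.3, 15.4 and 15.6 RPM. The group of Col20a1 and BX649560.1 had 2.83, 2.51 and 2.76 RPM. The first group was lowest in the homozygote, and the other 2 differed little between libraries.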

How the results depend on the processing

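No paired analysis was possible because each genotype has 1 library. Of collagen genes at least 2-fold higher, homozygote against wild type gave 3 in place of 0 with a 1 RPM minimum or none, and 1 at 1.5-fold, with median reads per base or with reads 5′ of the midpoint alone. Heterozygote against wild type gave 6 in place of 3 with either minimum or at 1.5-fold and 5 with median reads per base. Homozygote against heterozygote gave 1 in place of 0 with either minimum or median reads per base. Of genes at least 2-fold lower, 3-fold gave 3 in place of 8, 0 in place of 1 and 5 in place of 10 in the same order, and heterozygote against wild type gave 2 at 1.5-fold or with median reads per base and 3 with reads 5′ of the midpoint. Of PSI calls, homozygote against wild type gave 80 in place of 46 at 10 points, 71 with no minimum, 26 at 20 reads, 2 at 100 reads, 4 without PSI of 0 or 100%, 5 with 1 part a gene and 8 with equal exclusion counts taken as 1. Heterozygote against wild type gave 12 in place of 94 at 100 reads, 1 without PSI of 0 or 100%, 9 with 1 part a gene and 10 with equal exclusion counts taken as 1. Homozygote against heterozygote gave 98 in place of 55 at 10 points, 3 at 100 reads, 3 without PSI of 0 or 100%, 9 with 1 part a gene and 13 with equal exclusion counts taken as 1. Fewer parts or reads enter under the stricter settings by construction; the cause was not tested otherwise. The other counts, including those over main-transcript exons only, an alternative added after the data were seen, stayed within 1.5 times. Of single genes past 2-fold, Col11a2 turned, to 0.18 in homozygote against heterozygote with reads 5′ of the midpoint, and the cause was not tested. Most of the 60 single-gene log2 ratios moved outside their counting intervals without such a turn. This held for 49 under size factors and 53 with median reads per base. It held for 43 with reads 3′ of the midpoint and 51 with those 5′ of it. With a pseudocount of 0.1 RPM 13 moved, and over main-transcript exons 4 moved. Size factors shifted the all-gene median by 0.18, 0.10 and 0.27.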
